A study of Mus musculus with 18 samples.

Results

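Lgr5, Ascl2, Smoc2, Olfm4, Sox9, Lrig1, Prom1, Cd44, Ephb2 and Tnfrsf19 are genes of stem and early progenitor cells at the base of the intestinal crypt. These 10 genes were taken by name from the 47729 genes counted in mouse colon, with earlier results of these data known, and all 10 were in the table. RNA was sequenced in bulk from the colon of 3 groups of 3 libraries, numbered R1 to R9. WT control (R1 to R3) came from wild-type mice labelled as controls, WT AOM-DSS (R4 to R6) from wild-type mice given azoxymethane (AOM) and dextran sulfate sodium (DSS), and Claudin-2TG AOM-DSS (R7 to R9) from mice with a claudin-2 transgene given the same agents. AOM is a colon carcinogen and DSS injures the colonic epithelium, so that the pair is a standard model of colitis-associated cancer. Treated mice had 1 dose of AOM (10 mg/kg) and 3 cycles of DSS at 2.5%. The labels carry this dosing text on every sample, the controls included, and the controls were set apart by their treatment label alone. The transgene is driven by the Villin promoter, which is active in intestinal epithelium, and the mice were of the C57BL/6 strain. Ages were not given in the labels, and no group of untreated Claudin-2TG mice was analysed here, so the transgene was seen only together with AOM-DSS.

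The colonic crypt renews itself from stem cells at its base. Lgr5, a receptor for R-spondins, marks these cells, and ASCL2, a transcription factor under Wnt control, maintains them. Wnt signals reach the stem cells from the surrounding stroma, and their target genes include both stem cell genes and feedback inhibitors of the pathway. Colon tumours that activate Wnt signalling often express the same stem cell genes. In bulk colon, fewer cells of one type and less RNA per cell cannot be told apart.

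The libraries held 14142711 to 22262546 counts, and the 2 lanes of a library differed by no more than sampling noise, so they were added up. WT control R1 stood apart in its sex-linked RNAs. Xist, the RNA of the inactive X chromosome, had 214 CPM (counts scaled to the depth of the library) in R1 and at most 0.203 CPM in the other libraries, and Ddx3y from the Y chromosome had 0.149 CPM in R1 against 34.1 to 51.8 CPM elsewhere. Cldn2, the gene of the transgene, had 192, 259 and 245 CPM in WT control, 119, 137 and 132 CPM in WT AOM-DSS, and 208, 218 and 251 CPM in Claudin-2TG AOM-DSS. Cldn2 was thus 1.72-fold higher in Claudin-2TG AOM-DSS than in WT AOM-DSS (adjusted p = 0.0103) but overlapped with WT control (log2 fold change −0.03, adjusted p = 0.897). The difference between the treated groups did not pass without R8 (adjusted p = 0.0580) or without R9 (adjusted p = 0.0597). The epithelial markers fitted the labelled tissue: Epcam lay between 2230 and 2712 CPM in the 9 libraries.

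Per length of transcript, the stem cell genes covered a wide range of levels. In WT control, Lrig1, a receptor that restrains EGF receptor family signalling, had the largest mean, 34.6 ± 3.75 RPKM (counts per kilobase of exon, scaled to depth like CPM, SD, n = 3). It was followed by Smoc2, a secreted matrix protein enriched in Lgr5+ cells, at 24.8 ± 2.55 RPKM, and by the transcription factor Sox9 at 18.6 ± 1.35 RPKM. Prom1, which encodes the membrane protein CD133, had 18.5 ± 3.70 RPKM and overlapped with Sox9. Below them came Ephb2, the receptor that positions cells along the crypt axis, at 6.79 ± 0.826 RPKM, Ascl2 at 5.38 ± 0.915 RPKM and the hyaluronan receptor Cd44 at 4.004 ± 1.364 RPKM, and neighbours among these 3 overlapped. Lgr5 had 1.05 ± 0.236 RPKM and Tnfrsf19, a TNF receptor family member that is a Wnt target, 0.428 ± 0.197 RPKM, and these 2 did not overlap. Olfm4, a secreted glycoprotein of small intestinal stem cells, had only 0 to 10 counts in any library. In WT AOM-DSS the order changed at the top: Prom1 led at 50.3 ± 9.77 RPKM, every library above Smoc2, and Lrig1 came after Smoc2 and Sox9 by its mean, at 15.9 ± 1.14 RPKM. In Claudin-2TG AOM-DSS Lrig1 (31.7 ± 4.95 RPKM), Prom1 (30.1 ± 2.65 RPKM) and Sox9 (28.3 ± 3.76 RPKM) led, and neighbours among these 3 overlapped.

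**Figure D1:**
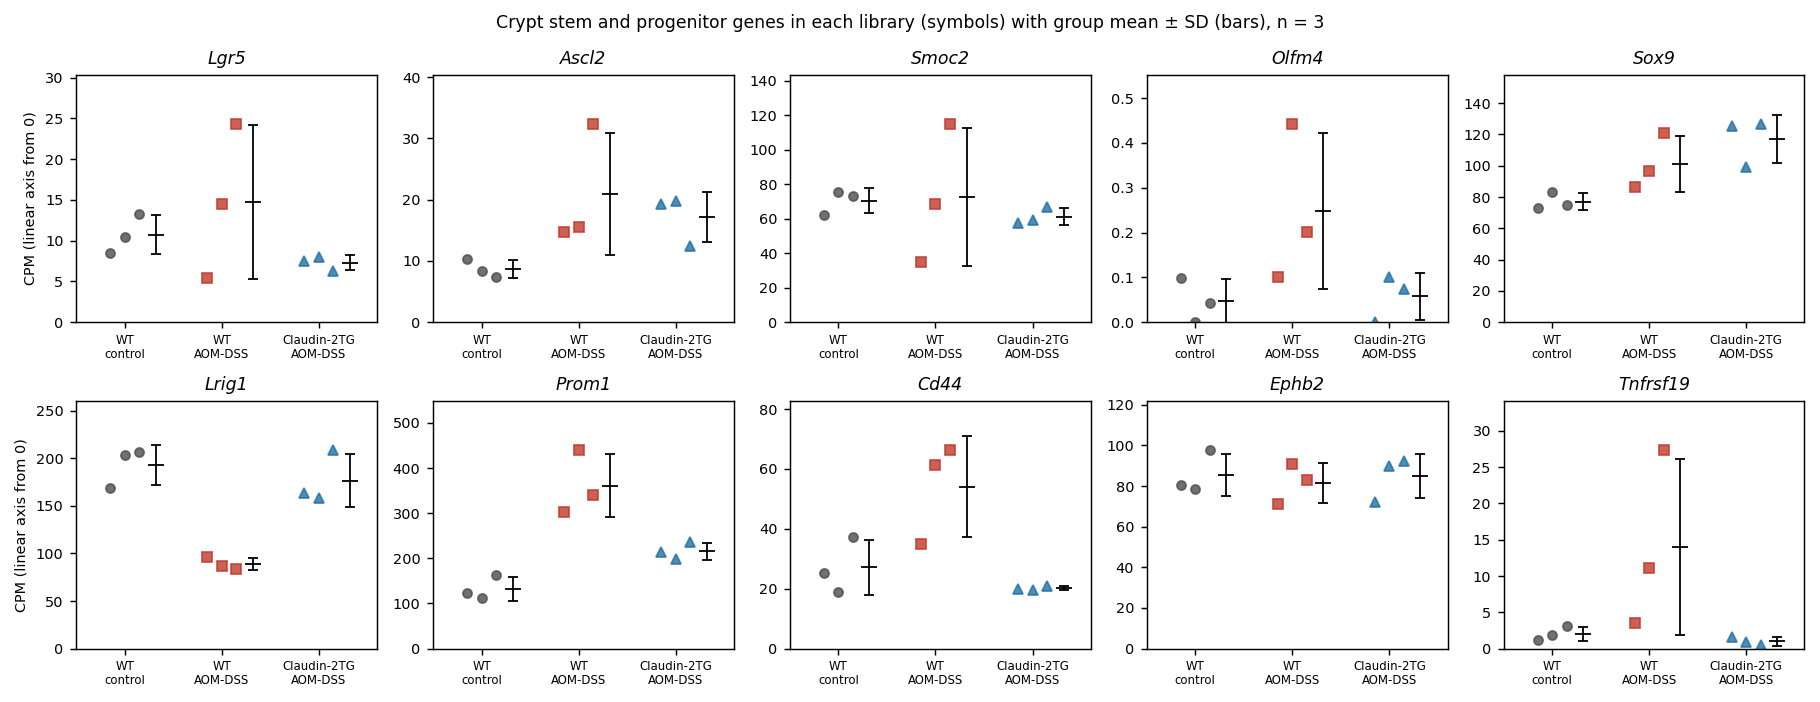
Normalised counts (CPM, linear axis from 0) of the 10 stem cell genes in each library, as symbols, with the mean ± SD of each group of 3 as bars; the axis cuts off the lower bar of Olfm4 in WT control below 0. Lrig1 lay lower and Prom1 higher in all WT AOM-DSS libraries than in all libraries of both other groups, while Lgr5, Smoc2 and Tnfrsf19 spread most widely in WT AOM-DSS.

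The first comparison, WT AOM-DSS against WT control, asked how the stem cell genes stood after the tumour model in wild-type mice. Prom1, Ascl2 and Tnfrsf19 rose and Lrig1 fell, while Lgr5, Smoc2 and Ephb2 showed no difference past the test. Of the 10 genes 9 had enough counts to be tested, and 4 of these had an adjusted p under 0.05 (edgeR quasi-likelihood test, Benjamini-Hochberg adjustment over all genes tested), where 15% of all 15437 genes tested did, 8.04% higher and 6.92% lower. The median log2 fold change of the 9 genes was 0.48, against 0.02 over all genes tested. The groups did not overlap for 5 of the 9, 4 higher and 1 lower, where 38.0% of all genes tested did not overlap, 17.7% higher and 20.3% lower.

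Lrig1 had 169, 204 and 207 CPM in WT control and 96.1, 86.4 and 84.1 CPM in WT AOM-DSS. Every treated library thus lay below every control, and the log2 fold change was −1.09 ± 0.12 (SE; adjusted p = 0.00492). Prom1 moved in the other direction. It had 122, 113 and 163 CPM in WT control and 304, 439 and 340 CPM in WT AOM-DSS, a 2.77-fold difference (log2 fold change 1.47 ± 0.19, adjusted p = 0.00763). Neither call was lost when any 1 of the 6 libraries was left out, with adjusted p up to 0.0344 for Lrig1 and 0.0465 for Prom1.

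Ascl2 had 10.4, 8.44 and 7.43 CPM in WT control and 14.8, 15.6 and 32.3 CPM in WT AOM-DSS. The groups did not overlap, R6 was the highest library, and the log2 fold change was 1.28 ± 0.32 (adjusted p = 0.0380). Tnfrsf19 had 1.24, 1.81 and 3.08 CPM in WT control and 3.51, 11.1 and 27.3 CPM in WT AOM-DSS. Here R4 lay just above the highest control and R6 7.79-fold above R4, and the log2 fold change of 2.78 had a wide error of 0.74 (adjusted p = 0.0487). The calls of Ascl2 and Tnfrsf19 held in only 1 of the 6 fits without a library, the one without R4, and the adjusted p reached 0.130 and 0.161 in the other fits. With all libraries kept, Ascl2 did not pass with scaling to the epithelial list (adjusted p = 0.0668) or with lane 2 alone (0.0502), and Tnfrsf19 did not pass with those settings, with library size only or with no filter (adjusted p from 0.0529 to 0.177).

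The RefSeq promoter table (build GRCm38.p6) held 9 windows for 7 of the 10 genes, with 250 bases before a transcription start used here. They were searched on both strands for CTTTGA, the core of the site of TCF/LEF factors, which carry the Wnt signal to DNA, and for CAGCTG, an E-box bound by ASCL factors. Across 32851 windows of all genes, 13.8% held the first and 13.0% the second. Ascl2 and Tnfrsf19, Wnt-linked genes that rose, are shown to let the searched letters be read, and neither window here holds either motif. The Ascl2 window lies at chr7:142969265-142969514 and that of the outer start of Tnfrsf19 at chr14:61046856-61047105, both windows on the minus strand, upstream of the genes and outside annotated exons.
Ascl2: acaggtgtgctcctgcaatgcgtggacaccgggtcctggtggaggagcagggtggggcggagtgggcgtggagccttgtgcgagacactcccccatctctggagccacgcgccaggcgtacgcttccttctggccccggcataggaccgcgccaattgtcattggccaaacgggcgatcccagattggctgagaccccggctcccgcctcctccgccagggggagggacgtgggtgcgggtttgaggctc
Tnfrsf19, outer start: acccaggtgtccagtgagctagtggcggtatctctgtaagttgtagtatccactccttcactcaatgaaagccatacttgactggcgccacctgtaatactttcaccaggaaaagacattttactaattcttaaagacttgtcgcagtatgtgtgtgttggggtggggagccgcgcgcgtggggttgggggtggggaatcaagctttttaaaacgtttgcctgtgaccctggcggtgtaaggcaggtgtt

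Among all 9 windows of the stem cell genes the only one with a match was that of an inner start of Tnfrsf19, 8868 bases downstream of the outer one. Its TCF/LEF core, read on the opposite strand, begins 201 bases before that start and covers chr14:61038183-61038188, outside annotated exons, and its E-box begins 10 bases before it and covers chr14:61037992-61037997, inside one. The stretches shown cover chr14:61038174-61038197 and chr14:61037988-61038006 on the minus strand. Capitals mark the matched letters, and a match of 6 letters is a description of the sequence.
Tnfrsf19, inner start, TCF/LEF core: aatgggggaTCAAAGtgacaaact
Tnfrsf19, inner start, E-box: ggcgggttcCAGCTGcagc

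Lgr5 had 8.46, 10.5 and 13.3 CPM in WT control and 5.44, 14.6 and 24.3 CPM in WT AOM-DSS. The treated libraries lay on both sides of the controls, with R4 below all of them and R5 and R6 above, and the log2 fold change of 0.48 ± 0.48 did not pass the test (adjusted p = 0.532, 95% interval −0.66 to 1.62). It depended on single libraries and was 0.87 without R4 (adjusted p = 0.0486) and −0.08 without R6 (adjusted p = 0.919). Smoc2 had 62.1, 75.6 and 73.4 CPM in WT control and 35.1, 68.3 and 115 CPM in WT AOM-DSS, with R4 below the controls, R5 among them and R6 above. Its log2 fold change was 0.07 ± 0.38 (adjusted p = 0.917).

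Sox9 had 72.9, 83.4 and 75.0 CPM in WT control and 86.2, 96.8 and 121 CPM in WT AOM-DSS. The groups did not overlap, but the difference of 0.42 ± 0.15 on the log2 scale did not pass the test (adjusted p = 0.0877). Cd44 had 25.2, 19.0 and 37.2 CPM in WT control and 34.8, 61.3 and 66.2 CPM in WT AOM-DSS, with R4 inside the range of the controls (log2 fold change 1.02 ± 0.31, adjusted p = 0.0641). Without R4 both passed, Sox9 at an adjusted p of 0.0259 and Cd44 at 0.0123, and DESeq2, which called 20.9% of the genes it tested, called Cd44 with all 6 libraries, as edgeR did with the spread from all 9 libraries (adjusted p = 0.0250). Ephb2 had 80.5, 78.6 and 97.5 CPM against 71.1, 90.8 and 82.8 CPM, and its log2 fold change of −0.04 had an interval from −0.35 to 0.26 (adjusted p = 0.849).

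Olfm4 was too low to be tested. It had 0.0995, 0 and 0.0434 CPM in WT control, 0.102, 0.442 and 0.201 CPM in WT AOM-DSS and 0, 0.101 and 0.0739 CPM in Claudin-2TG AOM-DSS. Over the 9 libraries 3 counts are worth 0.135 to 0.212 CPM, and no fold change is given between values at this depth.

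**Figure D2:**
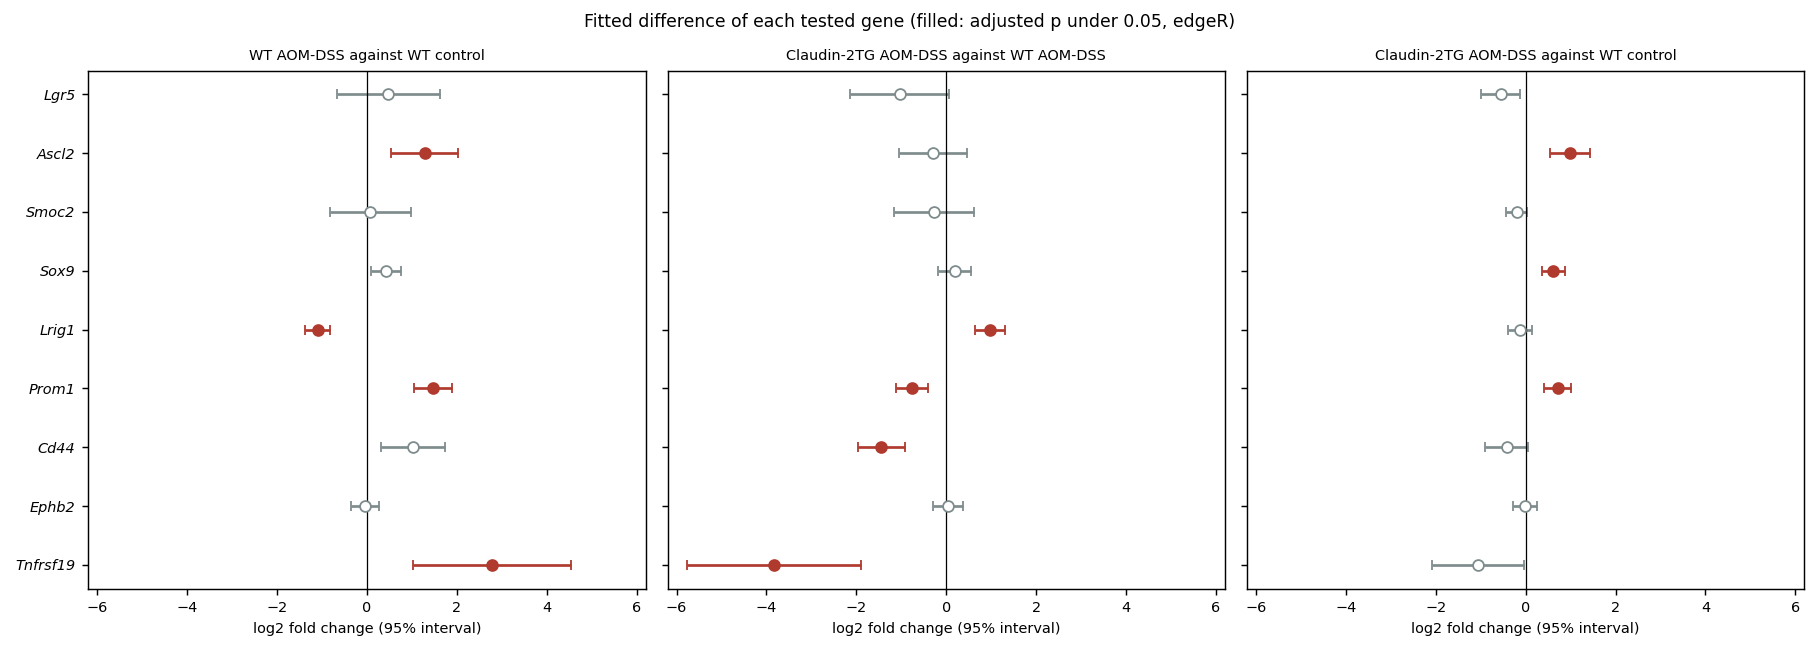
Fitted log2 fold change (horizontal axis) of the 9 tested stem cell genes in the 3 comparisons, with the 95% interval from edgeR as bars; filled symbols have an adjusted p under 0.05. Lrig1 and Prom1 stood on opposite sides of 0 in the first 2 panels with short bars, and the bar of Tnfrsf19 was the longest in each panel.

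The second comparison, Claudin-2TG AOM-DSS against WT AOM-DSS, asked what differed with the transgene in treated mice. Lrig1 was higher and Prom1, Cd44 and Tnfrsf19 were lower in the Claudin-2TG libraries, while Ascl2, Sox9, Smoc2 and Ephb2 did not pass the test. The count was 4 of 9 tested genes, where 9.54% of the 14888 genes tested passed, 2.19% higher and 7.35% lower. The median log2 fold change of the 9 genes was −0.30, against 0.01 over all genes tested. The groups did not overlap for 4 genes, 1 higher and 3 lower, where 28.5% of all genes tested did not overlap, 14.2% higher and 14.3% lower. WT AOM-DSS entered the first comparison too, so that a library far out in that group moves both.

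Lrig1 had 164, 158 and 209 CPM in Claudin-2TG AOM-DSS, each above the highest WT AOM-DSS library, 96.1 CPM. The log2 fold change was 0.97 ± 0.14 (adjusted p = 0.00879). Prom1 had 213, 198 and 236 CPM in Claudin-2TG AOM-DSS, below the lowest WT AOM-DSS value of 304 CPM and above the highest control value of 163 CPM. Its log2 fold change against WT AOM-DSS was −0.76 ± 0.16 (adjusted p = 0.0215).

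Cd44 had 19.98, 19.6 and 21.1 CPM in Claudin-2TG AOM-DSS, the narrowest group of any stem cell gene, with a coefficient of variation of 3.81%. All 3 lay below the WT AOM-DSS libraries, and the log2 fold change was −1.44 ± 0.23 (adjusted p = 0.0103). CD44 is also a leukocyte surface protein, and the leukocyte list moved with it: 7 of 10 tested leukocyte genes were lower in Claudin-2TG AOM-DSS and none higher, and without R8 1 was called. Over all genes tested 7.35% were lower in this comparison. The summed level of the 11 listed leukocyte genes was 36.3 to 75.5 CPM in WT control, 132 to 225 CPM in WT AOM-DSS and 29.4 to 55.0 CPM in Claudin-2TG AOM-DSS, with S100a8 and S100a9 at 0 in a WT control library and S100a8 at 0 in a Claudin-2TG library. Fibroblast and endothelial genes were lower in the same comparison, 3 of 7 and 3 of 5, with median log2 fold changes of −1.74 and −1.15 and none higher. The summed fibroblast level was 457 to 1133 CPM in WT AOM-DSS and 187 to 267 CPM in Claudin-2TG AOM-DSS, and the endothelial one 29.7 to 45.0 CPM and 12.5 to 17.1 CPM, with no listed gene at 0. Both counts were 0 without R8. The part of these 3 cell types in the Cd44 difference was not tested.

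Tnfrsf19 had 1.58, 0.912 and 0.443 CPM in Claudin-2TG AOM-DSS, all below the lowest WT AOM-DSS library. The fall of 3.83 ± 0.82 on the log2 scale was the largest among the stem cell genes (adjusted p = 0.0322), and the lowest library, R9, rested on 6 counts. Lgr5 had 7.51, 8.06 and 6.28 CPM, which lay above R4 and below R5 and R6 of WT AOM-DSS, and its log2 fold change of −1.03 ± 0.47 did not pass the test (adjusted p = 0.247, interval −2.13 to 0.07). Without R4 Lgr5 passed, at −1.42 (adjusted p = 0.00320), and without R6 its log2 fold change was −0.45 (adjusted p = 0.619). Smoc2 had 57.4, 59.3 and 66.7 CPM (log2 fold change −0.27 ± 0.38, adjusted p = 0.764), and Ephb2 had 72.3, 90.1 and 92.3 CPM (log2 fold change 0.04 ± 0.14, adjusted p = 0.931).

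None of the 4 calls held in every fit with 1 library left out. Without R8 or without R9 none of the 9 genes passed in edgeR, 4 had an unadjusted p under 0.05 in each, and DESeq2 with all 6 libraries called 4, where it called 13.9% of the genes it tested. The adjusted p without R8 was 0.0520 for Lrig1, 0.111 for Prom1, 0.0640 for Cd44 and 0.144 for Tnfrsf19, and without R9 it was 0.0506, 0.0808, 0.0644 and 0.121. Without R5 or without R7, Lrig1 and Cd44 passed and the count was 2. The directions of these 4 genes stayed the same in all 6 fits. With all libraries kept, Tnfrsf19 did not pass with scaling to the epithelial list (adjusted p = 0.0620), with no filter (0.153) or with lane 2 alone (0.0556).

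The third comparison, Claudin-2TG AOM-DSS against WT control, set the treated Claudin-2TG libraries beside untreated wild type, so that genotype and treatment differ at once and cannot be told apart. Ascl2, Sox9 and Prom1 rose, and no fall of a stem cell gene passed the test. The 3 rises were among 9 tested genes, where 10.0% of the 15013 genes tested passed, 3.92% higher and 6.07% lower. DESeq2 also called Ascl2, Sox9 and Prom1 and no other stem cell gene, where it called 12.0% of the genes it tested. The median log2 fold change of the 9 genes was −0.12, against 0.00 over all genes tested. The groups did not overlap for 4 genes, 3 higher and 1 lower, where 31.2% of all genes tested did not overlap, 14.9% higher and 16.3% lower.

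Ascl2 had 19.2, 19.9 and 12.4 CPM in Claudin-2TG AOM-DSS against a highest control of 10.4 CPM, a 1.98-fold difference (log2 fold change 0.98 ± 0.20, adjusted p = 0.0154). Sox9 had 126, 99.2 and 127 CPM against a highest control of 83.4 CPM (log2 fold change 0.61 ± 0.12, adjusted p = 0.0109). Prom1 was 1.63-fold higher (log2 fold change 0.71 ± 0.14, adjusted p = 0.0124). Sox9 and Prom1 passed in all 6 fits without a library, and Ascl2 lost its call without R3 or without R8, with an adjusted p up to 0.0709. With the spread estimated from all 9 libraries, Ascl2 (adjusted p = 0.120) and Sox9 (adjusted p = 0.0542) did not pass. Scaled to the epithelial list, Ascl2 (log2 fold change 0.82, adjusted p = 0.0539) and Sox9 (0.44, adjusted p = 0.0666) did not pass either, and Prom1 did (0.54, adjusted p = 0.0206).

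Lrig1, which differed between WT AOM-DSS and both other groups, overlapped between Claudin-2TG AOM-DSS and WT control. Its log2 fold change was −0.12 ± 0.12, with an interval from −0.40 to 0.15 (adjusted p = 0.576). Lgr5 lay below the lowest control in every Claudin-2TG library, but the log2 fold change of −0.55 ± 0.20 did not pass the test (adjusted p = 0.104). Tnfrsf19 overlapped with the controls (−1.05 ± 0.46, adjusted p = 0.181), as did Cd44 (−0.42 ± 0.21, adjusted p = 0.244), Smoc2 (−0.20 ± 0.11, adjusted p = 0.271) and Ephb2 (−0.01 ± 0.12, adjusted p = 0.982). With no filter on low counts, which raised the genes tested to 25909, the falls of Lgr5 (adjusted p = 0.0454), Cd44 (adjusted p = 0.0319) and Tnfrsf19 (adjusted p = 0.0380) passed, while in DESeq2 none of the 3 did (adjusted p = 0.0899, 0.214 and 0.1998). With 3 libraries against 3, an exact two-sided permutation test cannot go below 0.1, a value that every gene whose groups did not overlap reached. The study counts its sequenced groups in mice, but the labels do not tie a library to a mouse, so these p-values measure the spread between the libraries.

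**Figure D3:**
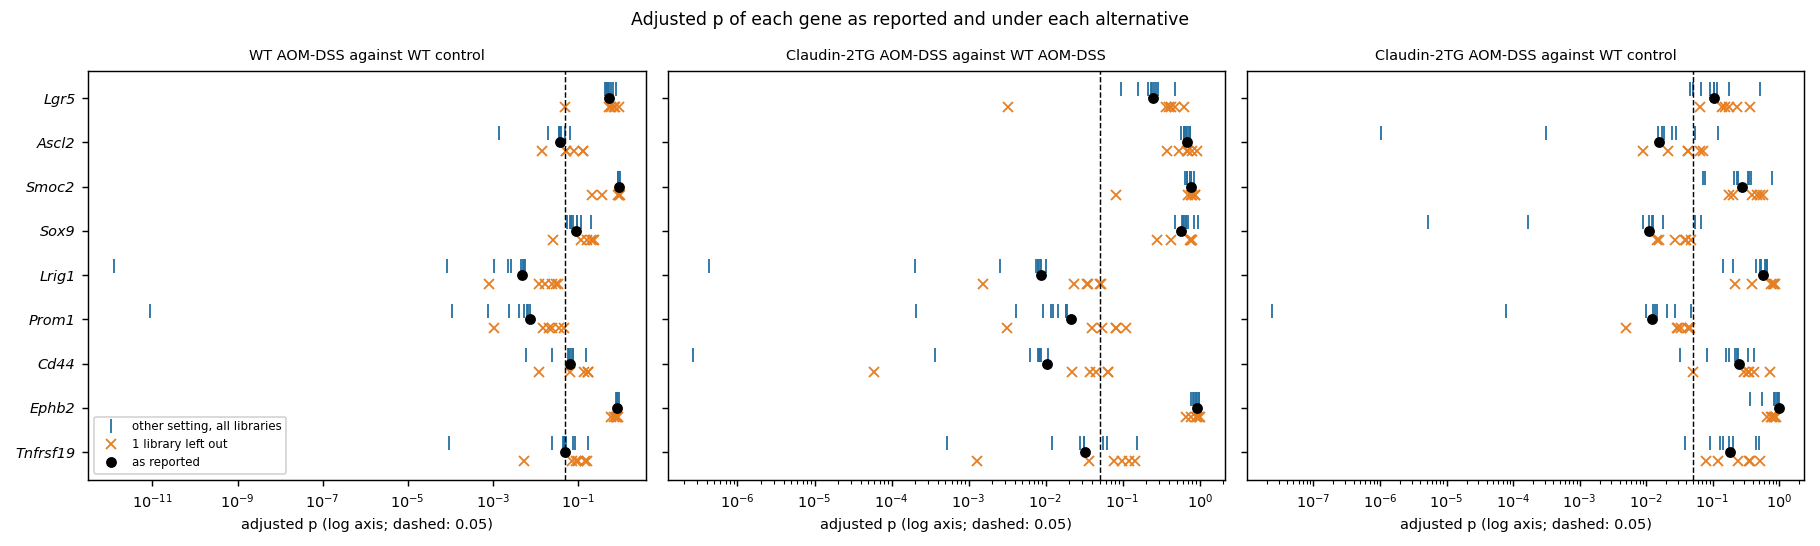
Adjusted p (log axis) of each tested stem cell gene in the 3 comparisons as reported (black circles), under the other settings with all libraries (blue bars) and with 1 library left out (orange crosses); the dashed line marks 0.05. In the first panel Lrig1 and Prom1 lay left of the line throughout, and in the second panel none of the 9 genes did.

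The libraries of WT AOM-DSS were less alike than those of the other groups over all genes, with a chi-square of 31.9 to 66.3 per degree of freedom between them against 16.8 to 25.1 within the other groups, and the values of 65.3 and 66.3 were those of the pairs with R4. Lgr5 varied 4.47-fold between the lowest and the highest WT AOM-DSS library, Smoc2 3.27-fold, Ascl2 2.19-fold and Tnfrsf19 7.79-fold, with R4 the lowest and R6 the highest in each. Within WT control the same ratios were 1.57, 1.22, 1.39 and 2.48, and within Claudin-2TG AOM-DSS 1.28, 1.16, 1.60 and 3.57. Lrig1, Sox9, Prom1 and Ephb2 varied by at most 1.45-fold within any group. Cd44 varied 1.96-fold within WT control, 1.90-fold within WT AOM-DSS and 1.08-fold within Claudin-2TG AOM-DSS. The mean of Lgr5 in WT AOM-DSS (14.8 ± 9.44 CPM, SD, n = 3) thus stood over 1 library below the controls and 2 above. R4 also had the most smooth muscle RNA of its group, with a summed level of 3071 CPM for the 7 listed genes against 1122 and 1338 CPM in R5 and R6, and the most absorptive colonocyte RNA, 6940 CPM against 4749 and 3466 CPM. Their part in the spread of the stem cell genes was not tested.

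The genes whose pattern over the 9 libraries lay nearest to Lgr5, by the root mean square difference of centred log2 CPM among 13915 genes, were Rnf122 (0.248), Sox4 (0.248) and Rnf180 (0.256), where the median of all genes was 0.689. Sox4, a transcription factor of progenitor cells, had 11.0, 27.2 and 32.1 CPM in WT AOM-DSS and 9.53 to 16.9 CPM in the other libraries. Nearest to Smoc2 were Amot (0.135), Slc39a8 (0.151) and Bcl6 (0.158), where the median was 0.499. Amot, a scaffold protein of the Hippo pathway, had 15.04, 29.3 and 41.5 CPM in WT AOM-DSS and 19.8 to 25.3 CPM elsewhere. Nearest to Olfm4 came Dcn (0.255), Mreg (0.301) and Thpo (0.310), but Olfm4 itself was at the counting floor.

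The Wnt receptor and feedback genes were set beside the stem cell genes because several of the latter are Wnt targets. In WT AOM-DSS against WT control 6 of the 18 genes rose and 1 fell, where 8.04% and 6.92% of all genes tested did. The median log2 fold change of the list was 0.20, against 0.02 over all genes tested. Notum, a secreted enzyme that inactivates Wnt ligands, had 0.149, 0.151 and 0.130 CPM in WT control and 20.4, 36.3 and 98.3 CPM in WT AOM-DSS (adjusted p = 0.00664). The transcription factor Lef1 had 0.348, 0.151 and 0.347 CPM in WT control and 3.96, 6.99 and 15.7 CPM in WT AOM-DSS (adjusted p = 0.00776). In both genes R4 was the lowest and R6 the highest of the WT AOM-DSS libraries, the order seen in Lgr5, Ascl2, Smoc2 and Tnfrsf19. Sox9, Cd44 and the proliferation gene Top2a had the same order.

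The other genes that rose, named after their values were seen, were the feedback inhibitor Nkd1, the Wnt target Sp5, the receptor Lgr6 and the transcription factor Tcf7. Nkd1 had 41.9, 94.8 and 233 CPM in WT AOM-DSS against 5.77 to 7.56 CPM in WT control, and Lgr6, a relative of Lgr5, had 2.08, 5.44 and 14.5 CPM against at most 0.149 CPM. Sp5 was at 0 in R1 and R2 of WT control, and Lgr6 at 0 in R8 of Claudin-2TG AOM-DSS. The control values of both genes were at or below the counting floor of 3 counts. The coreceptor Lrp6 fell (log2 fold change −0.60, adjusted p = 0.0339). Axin2, a widely used readout of Wnt activity, had 44.7, 64.7 and 114 CPM against 32.4, 34.8 and 37.1 CPM and did not pass the test (log2 fold change 1.13, adjusted p = 0.0536). The most abundant genes of the list were Ctnnb1, which encodes β-catenin (0.13, adjusted p = 0.548), and the receptor Lgr4 (−0.11, adjusted p = 0.638).

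In Claudin-2TG AOM-DSS against WT AOM-DSS 6 of the 18 Wnt genes were lower and 1, the receptor Fzd7, was higher. Over all genes tested 7.35% were lower and 2.19% higher. Notum had 0.620, 0.608 and 0.886 CPM in the Claudin-2TG libraries (adjusted p = 0.00907), far below WT AOM-DSS and above each control library. Lef1 had 0.689, 0.253 and 0.665 CPM (adjusted p = 0.0103). The count of 7 called Wnt genes fell to 1 without R2 in the first comparison and to 0 without R8 or without R9 in the second. Against WT control, 2 of 15 tested Wnt genes rose in Claudin-2TG AOM-DSS, Notum (adjusted p = 0.0170) and the transcription factor Tcf7l2 (adjusted p = 0.0325), and the count was 0 without R3 or without R8. Over all genes tested 10.0% were called, 3.92% higher and 6.07% lower. Notum had 0.149, 0.151 and 0.130 CPM in WT control, where 3 counts are worth 0.153, 0.15 and 0.136 CPM. The size of its rise thus rests on control values at the counting floor.

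**Figure D4:**
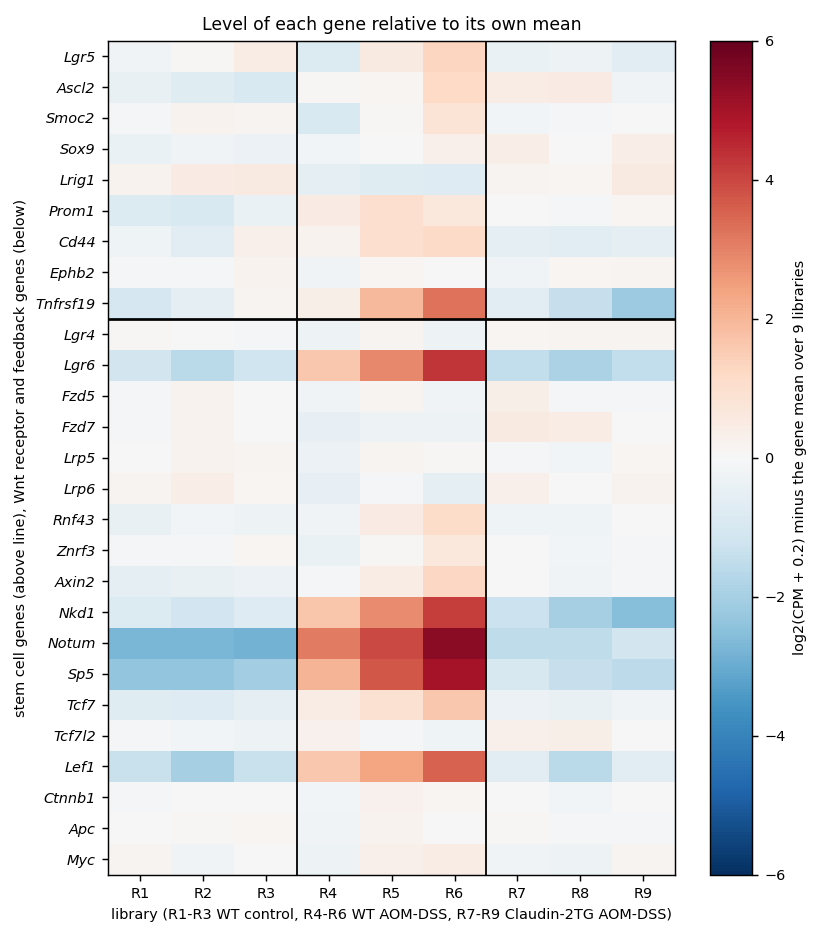
Level of each stem cell gene except Olfm4 (above the line) and of each Wnt receptor and feedback gene (below) in the 9 libraries, as log2(CPM + 0.2) minus the mean of that gene; red is above and blue below its mean. Notum, Sp5, Nkd1, Lgr6 and Lef1 were highest in the 3 WT AOM-DSS libraries and highest of all in R6, the library in which Lgr5, Ascl2, Smoc2, Cd44 and Tnfrsf19 were also highest.

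A further list held 18 other genes tied to intestinal stem and progenitor cells. In WT AOM-DSS 3 of them rose and 3 fell, where 8.04% and 6.92% of all genes tested did. Kit, the receptor of deep crypt secretory cells and of interstitial cells of Cajal, fell from 40.2, 45.3 and 53.7 CPM to 20.1, 21.0 and 17.3 CPM (log2 fold change −1.23 ± 0.14, adjusted p = 0.00554). Rgmb, a BMP coreceptor found in Lgr5+ cells, fell from 42.1, 47.3 and 50.1 CPM to 30.4, 26.2 and 21.4 CPM (−0.81 ± 0.15, adjusted p = 0.0167). Of the 18 genes 3 were higher and 1 was lower in Claudin-2TG AOM-DSS than in WT AOM-DSS, with a median log2 fold change of 0.20. Over all genes tested 2.19% were higher and 7.35% lower, with a median of 0.01. Kit was higher by 0.88 (adjusted p = 0.0196), Rgmb by 0.76 (adjusted p = 0.0182) and Ephb3, a relative of Ephb2, by 0.62 (adjusted p = 0.0190) on the log2 scale. Msi1, an RNA-binding protein, was lower (adjusted p = 0.0112), with 0.207, 0.203 and 0.2955 CPM in Claudin-2TG AOM-DSS. There 3 counts are worth 0.201, 0.146 and 0.202 CPM, so its log2 fold change of −4.05 rests on values near the counting floor. Ephb3 and Msi1 were named after their values were seen, and none of the 18 passed without R7, without R8 or without R9.

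The most abundant genes of that list were the ion transporter Slc12a2 (log2 fold change 0.18, adjusted p = 0.622) and the ephrin ligand Efnb1 (−0.34, adjusted p = 0.114) in WT AOM-DSS against WT control. The other genes called in this comparison, named after their values were seen, were Msi1 (3.07, adjusted p = 0.0232), Bmi1, a Polycomb protein (0.80, adjusted p = 0.0261), and the Notch ligand Dll4 (0.62, adjusted p = 0.0283), all higher, and the Notch target Hes1, lower (−0.65, adjusted p = 0.0184). Against WT control, 3 of 17 tested genes of the list rose in Claudin-2TG AOM-DSS and none fell, where 3.92% and 6.07% of all genes tested did. The count of called genes fell from 6 to 1 in the first comparison and from 3 to 1 in the third, in each case without R2 or without R3.

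Of the 17 genes of a proliferation list 0 rose and 3 fell in WT AOM-DSS, where 8.04% and 6.92% of all genes tested did, and their median log2 fold change was −0.56 against 0.02 over all genes. The share called was near the 15% of all genes, and a difference from the stem cell genes was not tested. Mki67, the gene of the Ki-67 antigen, had 161, 167 and 209 CPM in WT control and 84.8, 85.1 and 106 CPM in WT AOM-DSS (−0.93 ± 0.15, adjusted p = 0.0116). Top2a, a topoisomerase of dividing cells, had 152, 150 and 178 CPM against 59.0, 97.5 and 140 CPM and did not pass (adjusted p = 0.146). The cyclin Ccna2 fell by 0.91 on the log2 scale (adjusted p = 0.0287). In Claudin-2TG AOM-DSS against WT AOM-DSS none of the 17 passed in edgeR, where 3 had an unadjusted p under 0.05 and DESeq2 called 2, and the count of called proliferation genes in the first comparison ranged from 0 without R2 to 8 over the fits without a library.

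The epithelial list gives the level of the tissue in which the stem cells sit. None of its 8 genes passed in either of the first 2 comparisons in edgeR. An unadjusted p under 0.05 was reached by 3 genes in the first and 1 in the second, and DESeq2 called 2 and 0. The summed level was 14993 to 16436 CPM in WT control, 15129 to 18472 CPM in WT AOM-DSS and 16318 to 19911 CPM in Claudin-2TG AOM-DSS. Krt8, the most abundant of them, had a log2 fold change of 0.22 in WT AOM-DSS (adjusted p = 0.305), and Krt19 one of 0.12 (adjusted p = 0.605). The smallest adjusted p in this comparison were those of Krt18 (0.44, adjusted p = 0.0542) and Cldn7 (0.32, adjusted p = 0.0975), and the largest negative log2 fold changes, named after their values were seen, were those of Cdx2 (−0.42, adjusted p = 0.2003) and Cdh1 (−0.38, adjusted p = 0.133). Against WT control, where 3.92% of all genes tested were higher, 2 of the 8 were higher in Claudin-2TG AOM-DSS, Krt8 (0.43, adjusted p = 0.0384) and Cldn7 (0.31, adjusted p = 0.0483). Neither passed without any 1 of R1, R2, R3, R8 and R9.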

How the data were processed

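RNA-Seq of mouse colon was analysed in 9 libraries of 3 groups, 2 lanes each. The deposited table holds whole-number counts per gene that the authors made with featureCounts (Subread) on build GRCm38. The submitters' processing notes name HISAT2 as aligner and the study's methods TopHat2, and versions, annotation release and strand setting are not given in the sources used here. Where counting ignored strand, reads of overlapping antisense genes cannot be told apart. Of 47729 genes 47224 had a symbol. The lanes of a library agreed within sampling noise (chi-square 0.995 to 1.06 per degree of freedom, against 16.8 to 66.3 between libraries of a group) and were added up. Mitochondrial genes took 2.86% to 5.76% of counts.

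For each pair of groups, edgeR 4.0.16 (R 4.3.3) was run on the 6 libraries concerned, with TMM, filterByExpr (minimum count 10, minimum total 15) and a robust quasi-likelihood test, two-sided. Adjustment (Benjamini-Hochberg) covered every gene tested, and called means an adjusted p under 0.05. Standard errors came from the test statistic. CPM and RPKM carry TMM factors over 9 libraries, and fold changes come from the fits. The fit was tested on simulated data. Alternatives were DESeq2 1.42.0, other scalings and filters, all 9 libraries, single lanes and leaving out each library. The comparisons share groups. The 10 genes, the context lists and the naming rule were chosen with earlier results of these data known. The rule named all 10 genes, of each context list the 2 most abundant and the 2 with the smallest adjusted p in the first comparison, the 3 genes nearest in pattern to each of Lgr5, Smoc2 and Olfm4, and Cldn2. Counting intervals and floors (3 counts) cover counting error only.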

Additional observations from a re-analysis of the deposited data

How the results depend on the processing

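The number of stem cell genes called in WT AOM-DSS against WT control was 4 and ranged from 2 to 7 when 1 library was left out. It was 2 with scaling to the epithelial list and 2 with lane 2 alone. In Claudin-2TG AOM-DSS against WT AOM-DSS it was 4 and ranged from 0 to 5 without 1 library. In Claudin-2TG AOM-DSS against WT control it was 3, with 1 under epithelial scaling, 6 with no filter and 1 with all 9 libraries in the fit. Changes of sign occurred in Lgr5, Ascl2, Smoc2 and Ephb2, none called as reported in the comparison concerned, and the cause was not tested. Ephb2 turned to −0.070 (library size only), −0.11 (epithelial scaling) and −0.028 (lane 2 alone) in the second comparison and to 0.038 (lane 1 alone) in the third. Without 1 library, the log2 fold change ranged from −0.083 to 0.87 for Lgr5, −0.42 to 0.40 for Smoc2 and −0.12 to 0.045 for Ephb2 in the first comparison, from −0.48 to 0.17 for Ascl2, −0.59 to 0.24 for Smoc2 and −0.044 to 0.15 for Ephb2 in the second, and from −0.071 to 0.094 for Ephb2 in the third.

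Over all genes, 2310, 1421 and 1501 were called in the 3 comparisons, against 135 to 4080, 58 to 2894 and 525 to 1383 without 1 library. The low ends came without R2, R8 and R3, and the high ends of the first 2 without R4. No filter gave 2567 in the third and all 9 libraries 445, while a minimum of 10 counts in every library gave 908 and all 9 libraries 2136 in the second. Scaling to the epithelial list moved the median of all genes to −0.13 in the second and −0.17 in the third comparison, and in the third 147 genes were higher and 1372 lower, against 589 and 912 with TMM and 276 and 1310 with library size only. Of 540 counts of called genes in the context lists, 349 stayed within 1.5 times. A minimum of 10 counts in every library left Tnfrsf19 untested in the last 2 comparisons. No paired analysis was possible because the groups share no replicate number. Depth limits Olfm4, at most 10 counts, and Tnfrsf19 and Msi1 in Claudin-2TG AOM-DSS. It also limits Notum in WT control, and Sp5 and Lgr6 in WT control and Claudin-2TG AOM-DSS.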

Other observations

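Genes of the stem cell niche, stromal signals among them, moved unevenly. Of 14 tested niche genes 4 rose and 1 fell in WT AOM-DSS against WT control, where 8.04% and 6.92% of all genes tested did. The niche list had a median log2 fold change of 0.03 and the fibroblast list one of 0.95. Foxl1, a transcription factor of the mesenchymal telocytes that feed the niche, rose from 1.10, 0.603 and 0.695 CPM to 3.05, 3.58 and 7.03 CPM (log2 fold change 2.53, adjusted p = 0.0139), and the ligand Wnt4 rose by 1.76 (adjusted p = 0.0158). Bmp2, an epithelial differentiation signal, fell from 182, 145 and 110 CPM to 66.1, 85.6 and 61.4 CPM (−1.01, adjusted p = 0.0208). The BMP inhibitor Grem1 had a log2 fold change of −0.21 (adjusted p = 0.665). In Claudin-2TG AOM-DSS against WT AOM-DSS 6 of 11 tested niche genes were lower and 1, Bmp2, was higher. Over all genes tested 7.35% were lower and 2.19% higher. The median log2 fold change was −1.68 for the niche list and −1.74 for the fibroblast list, and the part of fibroblasts was not tested. Grem1 had 3.58, 4.71 and 7.24 CPM in Claudin-2TG AOM-DSS, below every WT library, and was lower than in WT control (−1.68, adjusted p = 0.0105). The called count was 0 without R2 in the first of these comparisons and 0 without R8 or without R9 in the second.

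The lists of differentiated crypt cells and of other cell types of the wall had called genes in WT AOM-DSS against WT control at or near the share of all genes tested (15%) or below it, except the colonocyte and leukocyte lists. In WT AOM-DSS 3 of 12 absorptive colonocyte genes fell and 1 rose. Car4, a surface carbonic anhydrase, fell by 1.65 on the log2 scale (adjusted p = 0.0224) and Guca2b rose by 0.84 (adjusted p = 0.0160), while Krt20 (0.12, adjusted p = 0.567) was among those not called. Of 9 goblet and deep crypt secretory genes 1 fell, Clca1 (−0.96, adjusted p = 0.0173), and Fcgbp (−0.25, adjusted p = 0.293) and Agr2 (−0.47, adjusted p = 0.126) did not pass. Neither list had a called gene without R1 or without R2, and the colonocyte list had none without R3. Of 11 leukocyte genes 7 rose, among them Coro1a (2.39, adjusted p = 0.0157), Cd68 (1.67, adjusted p = 0.0158) and Lcp1 (1.09, adjusted p = 0.0357), and 1 of 7 fibroblast genes, Thy1 (1.01, adjusted p = 0.0158), while Col3a1 (0.87, adjusted p = 0.118) and Dcn (1.27, adjusted p = 0.0519) did not pass. Without R3 none of the leukocyte or fibroblast genes was called. Of the 7 fibroblast genes 5 had an unadjusted p under 0.05 in edgeR and DESeq2 called 4. Their called count in edgeR ranged from 0 to 5 with 1 library left out. None of 7 smooth muscle genes passed in edgeR in that comparison, where 2 had an unadjusted p under 0.05 and DESeq2 called 2. Without R4, however, 5 of these 7 were called. With all libraries the 7 included Acta2 (−0.95, adjusted p = 0.118), Myl9 (−0.98, adjusted p = 0.120), Tagln (−0.54, adjusted p = 0.410) and Des (−0.75, adjusted p = 0.342). None of 5 endothelial genes passed, with 0 at an unadjusted p under 0.05 and 0 in DESeq2, among them Pecam1 (−0.05, adjusted p = 0.875), Emcn (−0.18, adjusted p = 0.675) and Eng (0.44, adjusted p = 0.197). Elavl4 (−1.58, adjusted p = 0.0575) and Ret (1.19, adjusted p = 0.164) did not pass, and 1 of 7 enteric neuron and glia genes fell, Uchl1 (−1.18, adjusted p = 0.0337). None of these 7 was called without R1, R2, R3, R5 or R6, and 6 were without R4.

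In Claudin-2TG AOM-DSS against WT control all 7 enteric neuron and glia genes, 4 of 5 endothelial genes and 3 of 7 smooth muscle genes were lower. Over all genes tested 6.07% were lower. Ret had 3.17, 2.99 and 2.59 CPM against 10.5, 7.33 and 12.2 CPM (−1.77, adjusted p = 0.00227), Eng fell by 1.63 (adjusted p = 0.00302) and Acta2 by 1.43 (adjusted p = 0.00988). The summed level of the endothelial list was 32.7 to 37.3 CPM in WT control and 12.5 to 17.1 CPM in Claudin-2TG AOM-DSS. The counts fell to 4 without R1, R3 or R9, to 2 without R2 or R8 and to 1 without R3, in that order of lists, and the part of these cells in the stem cell genes was not tested.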
